A study of Mus musculus with 8 samples.

Results

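The genes described here are antioxidant and glutathione genes, grouped around the transcription factor NRF2. They were followed in primary myofibroblastic hepatic stellate cells (pMF-HSCs) treated with an inhibitor of O-GlcNAc transferase. NRF2 protein and binding were not measured, and control of each member by NRF2 was not tested. The members were picked by gene symbol, with earlier results of these data known, so their counts are not those of a list chosen blind. They comprised 28 named genes and the 21 glutathione S-transferase genes of the alpha, mu, pi, theta, kappa and omega classes, 49 of the 40840 genes in the count tables. Hepatic stellate cells store vitamin A in the liver, and in culture they turn into matrix-producing myofibroblasts. Wild-type male C57BL/6J mice aged 15 to 18 weeks provided the cells, which were sorted by retinol autofluorescence and kept for 7 days in medium with 5% fetal bovine serum. The Control group (n = 4) then received DMSO, the vehicle, and the OGTi group (n = 4) received OSMI-1 at 50 µM, both for 24 h. OSMI-1 blocks the enzyme that attaches the sugar O-GlcNAc to proteins, and 1 inhibitor at 1 dose and 1 time point was used. The 4 replicates were independent experiments, each with 1 Control and 1 OGTi library of polyadenylated RNA. The comparison asks how these genes differ between cells given OSMI-1 and cells given the vehicle. O-GlcNAc was not measured in these libraries. Effects of lower O-GlcNAcylation and other effects of the compound cannot be told apart here.

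In unstressed cells, KEAP1 holds NRF2 (gene Nfe2l2) in the cytoplasm and delivers it to the proteasome. Oxidants and electrophiles modify KEAP1, NRF2 then accumulates without a need for more of its own mRNA, pairs with small MAF proteins and binds antioxidant response elements near its target genes. Those targets make glutathione, reduce peroxides and quinones, supply NADPH, couple glutathione to electrophiles and pump the conjugates out of the cell.

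The core of the antioxidant response element, TGACNNNGC on either strand, was searched in the RefSeq promoter windows of the members (GRCm38.p6 table, 250 bases before to 50 after the annotated start). Windows were supplied for 42 members, and each of their 58 windows was placed on GRCm39 by an exact match. No window was at hand for Gclc, Gsr, Hmox1, Prdx6, Abcc1, Gsta4 and Gstt2. The core lay in 14 of these 58 windows (24.1%), which belong to 13 members, and in 12.4% of the 32851 windows of all genes. Of the 13 members with a window that rose under OGTi, 4 held the core (Gclm, Srxn1, Prdx1 and G6pdx), as did 8 of the 28 that were not called changed (Nfe2l2, Txnrd1, Pgd, Me1, Abcc4, Gsta3, Gstm5 and Gstm7). Ugdh, the member that fell, held 2 of them. The related motif TGANTCA, which AP-1 factors bind, lay in 7.81% of all windows. Among the members it lay in windows of Srxn1, Osgin1, Prdx1, Me1, Gstm5, Gstp1 and Gstp2. The core overlapped that motif in Prdx1 and Me1 alone among the members. These matches describe letters in the windows and are not evidence of binding. Elements outside the windows, or spelled otherwise than this core, were missed. A window without the core therefore does not show that its gene lacks a response element.

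The 250 bases before the annotated start are shown for Srxn1, the member with the largest change, for Prdx1, an abundant member that rose, and for Ugdh, the member that fell. Capitals mark the core and TGANTCA, each on either strand. Srxn1 held TGAGTCA at 2 places here (chr2:151947194-151947443, plus strand). Prdx1 held a core read on the minus strand, overlapping TGANTCA, and a further TGANTCA (chr4:116542546-116542795, plus strand). Ugdh held 1 core on each strand (chr5:65593186-65593435, minus strand). All coordinates are in GRCm39.
Srxn1: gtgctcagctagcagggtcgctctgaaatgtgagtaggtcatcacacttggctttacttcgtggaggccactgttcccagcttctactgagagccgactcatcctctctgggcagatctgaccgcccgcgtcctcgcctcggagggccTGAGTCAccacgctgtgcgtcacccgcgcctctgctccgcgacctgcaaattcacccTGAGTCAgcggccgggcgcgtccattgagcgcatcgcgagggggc
Prdx1: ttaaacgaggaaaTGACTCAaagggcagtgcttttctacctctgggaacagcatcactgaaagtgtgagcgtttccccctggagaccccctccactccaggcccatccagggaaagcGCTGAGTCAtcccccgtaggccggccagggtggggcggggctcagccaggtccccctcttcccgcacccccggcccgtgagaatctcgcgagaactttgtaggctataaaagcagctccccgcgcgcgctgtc
Ugdh: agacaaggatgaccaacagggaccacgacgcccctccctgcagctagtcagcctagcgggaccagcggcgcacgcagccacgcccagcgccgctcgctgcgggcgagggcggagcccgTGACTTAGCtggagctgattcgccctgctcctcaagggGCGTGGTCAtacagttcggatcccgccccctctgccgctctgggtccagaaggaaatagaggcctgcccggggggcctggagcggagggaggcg

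For the members that rose and held the core, and for Nfe2l2 itself, the match is shown on its own strand with 5 flanking bases on each side and the core in capitals. Positions count from the annotated start, whose first transcribed base is 0. The Gclm match ran from -134 to -126, that of Prdx1 from -133 to -125, that of G6pdx from -57 to -49 and that of Nfe2l2 from -240 to -232. The Srxn1 match lay after the start, from 28 to 36.
Gclm: agagtTGACGGTGCgcccg
Prdx1: ggggaTGACTCAGCgcttt
G6pdx: tgcttTGACTGAGCtgacc
Srxn1: cactcTGACCTAGCtgccc
Nfe2l2: ccaccTGACTCCGCcatgc

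The libraries held 30068876 to 37372420 expected counts, RSEM's estimates of the reads belonging to each gene. Genes with a count numbered 19035 to 20293 in 7 libraries and 23746 in OGTi replicate 4. Values below are scaled counts, that is, counts brought to a common effective library size by TMM scaling, and they compare one gene between libraries. Levels of different genes are compared only in TPM, a transcript abundance corrected for gene length and depth. Genes were tested with edgeR's quasi-likelihood model with the replicate as a block, and a gene was called changed at a Benjamini-Hochberg adjusted p of at most 0.05 over the 19963 genes tested. Marker lists of liver cells were read beside all genes tested, of which 8.13% rose and 10.2% fell. Of 14 stellate and myofibroblast genes, 4 fell (Lrat, Hgf, Pdgfrb and Pdgfra) and none rose. The 14 genes summed to 3878 to 7066 TPM in Control and 3241 to 7499 TPM in OGTi libraries. The 8 hepatocyte genes, of which 3 were tested, summed to 0.06 to 0.59 TPM in Control and 0.52 to 1.67 TPM in OGTi libraries. Hnf4a and Tat were at 0 in all 8 libraries, and Cyp2e1 was the gene of that list that rose. Of 8 macrophage genes, Cd68 rose and none fell (49.8 to 171.8 against 88.1 to 226.4 TPM summed). Lyz2 ranged from 13.67 to 167.54 TPM, Cd68 from 11.02 to 69.4 TPM, Csf1r from 2.22 to 6.66 TPM and Vsig4 from 0 to 2.79 TPM over the 8 libraries, and Adgre1, Clec4f, Marco and Ptprc did not exceed 0.96 TPM in any. Of 7 endothelial genes, Lyve1 and Tek fell (1.52 to 2.99 against 0.32 to 0.98 TPM summed). Of 6 cholangiocyte genes, 5 of them tested, Sox9 rose and Krt19 fell (306.6 to 654.4 against 128.4 to 563.2 TPM summed). That sum was mostly Spp1 (71.18 to 534.84 TPM over the 8 libraries), which was not called, and Krt19 (46.5 to 139.08 TPM). Sox9 reached 22.85 TPM, Krt7 5.05, Epcam 0.79 and Cftr 0.02 TPM at most. The part of these shifts in the results below was not tested, and in bulk RNA a change in the number of cells of a type and a change in RNA per cell cannot be told apart.

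Under OGTi, 4 of 5 genes of glutathione supply and 5 of 7 inducible detoxifying enzymes rose, whereas Ugdh fell and Nfe2l2, Keap1, Txnrd1 and Ephx1 were not called changed. The members with the largest increases were Srxn1, Gsta2, Gsta1, Hmox1, Osgin1 and Nqo1, with log2 fold changes of 2.27 to 3.53. All 49 members passed the filter of 10 counts in total, and 18 of them (36.7%) were called changed, against 18.4% of all genes tested. The 17 that rose compare with a background of 8.13%, and the 1 that fell with a background of 10.2%. The median log2 fold change was 0.57 over the members and 0.005 over all genes. The estimate was positive for 45 of the 49. This direction count depends on the scale, since 36 were positive with library totals alone and 33 of 49 on log2(TPM + 1). Of the genes called among all those tested, 44.3% were higher, a share that was 30.1% with library totals alone and 25.7% on log2(TPM + 1). In 18 members the 4 OGTi libraries did not overlap the 4 Control libraries (23.5% of all genes), and 30 moved the same way in all 4 pairs (40.9% of all genes). Of the 18 calls, 13 held in all 15 alternative analyses, the 4 that each leave out a replicate pair included. The other 5 calls (Txn1, Prdx6, G6pdx, Gsta2 and Gstm1) were each lost in some of them.

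**Figure D1:**
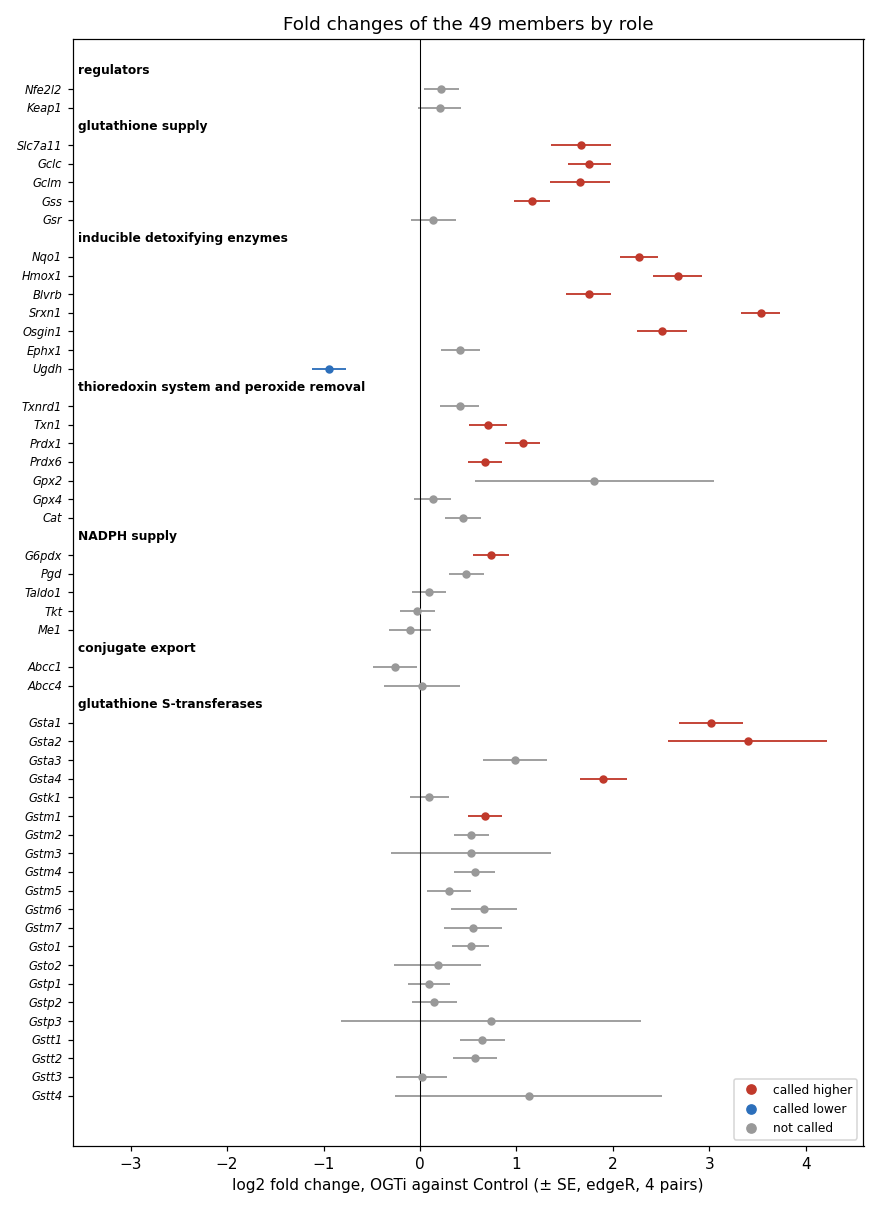
Log2 fold changes (x axis, OGTi against Control, points with SE bars, edgeR, 4 pairs) of the 49 members, ordered by role. The glutathione supply and inducible enzymes lie mostly to the right of 1, the 1 member called lower is Ugdh, and most glutathione S-transferases lie between 0 and 1 in this scaling.

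The regulators came first in this order, and neither was called changed. Nfe2l2 (chr2:75504739-75534985, minus strand) measured 10457, 10608, 12235 and 16039 scaled counts in Control replicates 1 to 4 and 15336, 10842, 14338 and 16891 in the OGTi libraries of the same replicates. Its groups overlapped, and the log2 fold change was 0.22 ± 0.18 (SE, adjusted p = 0.458). Each pair was higher under OGTi in scaled counts. In TPM, in contrast, the mean was 267 ± 57.9 (SD, n = 4) in Control and 246 ± 36.9 in OGTi, so that the direction for Nfe2l2 depends on the scale. Keap1, which encodes the sensor and adaptor for NRF2 degradation (chr9:21141026-21150679, minus strand), stood at 1145, 1831, 1606 and 1383 in Control and 1924, 1981, 1613 and 1344 in OGTi. The Keap1 groups overlapped as well, and the change of 0.21 ± 0.22 had an adjusted p of 0.580. Its mean in TPM was 22.1 in Control and 20.4 in OGTi, so its direction depends on the scale too.

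Glutathione is built from cysteine, which many cells import as cystine, and 4 of the 5 members of this group rose (80%, against 8.13% of all genes), with a median log2 fold change of 1.66. Slc7a11 encodes the light chain of the cystine-glutamate antiporter (chr3:49846975-50398070, minus strand). Its scaled counts were 669.6, 659, 319.5 and 389 in Control and 1122, 1587, 1734 and 1826 in OGTi. The lowest OGTi library lay above the highest Control library, and the change was 1.67 ± 0.31 (adjusted p = 0.00518). The pairs differed in size, with differences in log2(scaled counts + 1), used for all pairs here, of 0.74, 1.27, 2.44 and 2.23 in replicates 1 to 4.

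Glutamate-cysteine ligase, the rate-limiting enzyme of glutathione synthesis, is made of a catalytic subunit (Gclc) and a modifier subunit (Gclm). Gclc (chr9:77661797-77701770, plus strand) went from 334, 357, 249 and 289 scaled counts in Control to 1076, 1075, 1037 and 932 in OGTi, without overlap. The change of 1.76 ± 0.22 had an adjusted p of 0.000843. Its 4 OGTi libraries lay close together, and the pairs moved by 1.59 to 2.06 on the log2 scale. For Gclm (chr3:122039126-122065061, plus strand), the Control values were 344, 518, 221 and 196 and the OGTi values 1245, 788, 701 and 1121. Its change was 1.66 ± 0.31 (adjusted p = 0.00548), the groups did not overlap, and pair 2 moved least, by 0.60 on the log2 scale. Both subunits therefore rose in every pair.

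Gss, glutathione synthetase, performs the second step (chr2:155405096-155455505, minus strand). Control libraries held 6379.5, 4882, 5396 and 6742 scaled counts and OGTi libraries 14385, 10520, 15174 and 12380, again without overlap. The increase was 1.16 ± 0.19 (adjusted p = 0.00299). Gsr, glutathione reductase, which recycles the oxidised form, was not called changed (0.14 ± 0.24, adjusted p = 0.740). The summed level of the 5 genes was 195 ± 21.1 TPM in Control and 352 ± 28.8 TPM in OGTi (SD, n = 4 each).

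**Figure D2:**
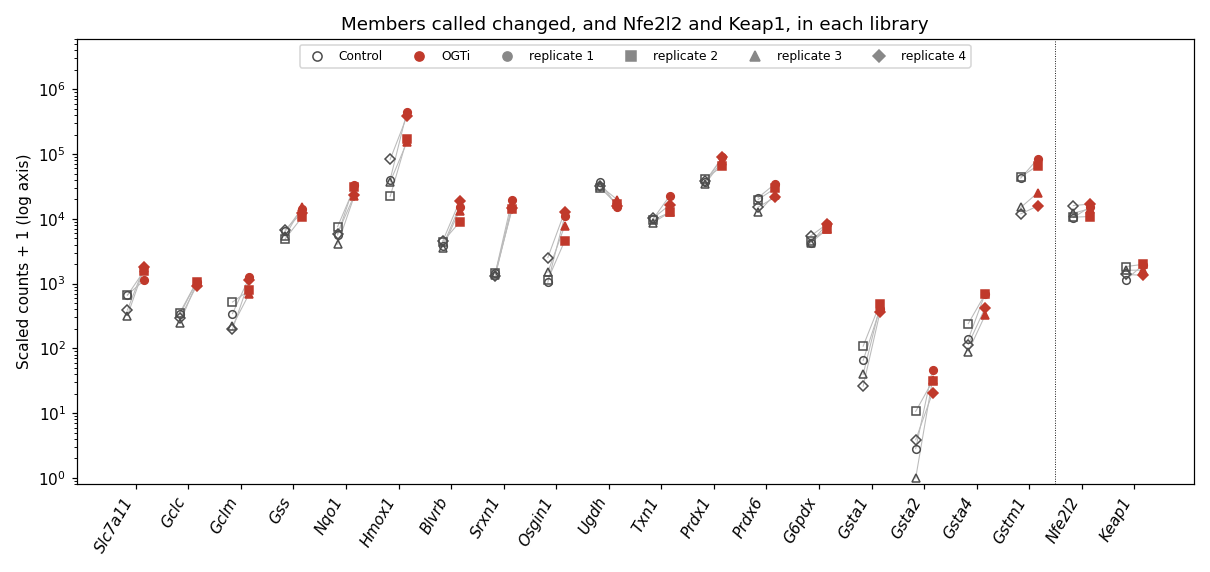
Scaled counts plus 1 (y axis, log scale) in each Control (open) and OGTi (filled) library for the 18 members called changed and for Nfe2l2 and Keap1, with lines joining the pairs and 1 symbol per replicate. The OGTi points lie above all Control points for 16 of the called members, below them for Ugdh, and overlap them for Gstm1.

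Of the 7 inducible detoxifying enzymes, 5 rose, Ugdh fell and Ephx1 was not called (85.7% called, against 18.4% of all genes). Srxn1, sulfiredoxin, repairs overoxidised peroxiredoxins (chr2:151947436-151957687, plus strand). Its scaled counts were 1436, 1455, 1353 and 1326 in Control and 19774, 14043, 16219 and 14890 in OGTi. The Control libraries of Srxn1 differed little from each other and the groups were far apart, at a mean of 1392 ± 62.8 against 16231 ± 2526 (SD, n = 4). The change was 3.53 ± 0.21 (adjusted p = 3.73e-05), and every pair moved by between 3.27 and 3.78 on the log2 scale.

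Hmox1, heme oxygenase, opens the heme ring to give biliverdin, iron and carbon monoxide (chr8:75820241-75827217, plus strand). The Control libraries held 40316, 22138, 37127 and 82634 scaled counts and the OGTi libraries 453560, 171820, 153070 and 384140. Every OGTi library exceeded every Control library, although replicate 4 was the highest Control library by far. The change was 2.68 ± 0.25 (adjusted p = 0.000277). Blvrb, a biliverdin reductase that acts downstream in the same pathway (chr7:27147275-27165569, plus strand), rose from 3766, 4429, 3588 and 4526 to 15494, 8849, 13429 and 18556. Its groups did not overlap (1.75 ± 0.23, adjusted p = 0.00106), and replicate 2 had the lowest OGTi value for both Blvrb and Osgin1.

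Nqo1 reduces quinones by a reaction that avoids radical intermediates, and it is the usual readout of NRF2 activity (chr8:108113835-108129934, minus strand). Its Control values were 5649, 7569.8, 4047 and 5929 and its OGTi values 33771, 30752, 22853 and 23394, so that the groups were well separated. The change was 2.27 ± 0.20 (adjusted p = 0.000220). Osgin1, a growth inhibitor induced by oxidative stress (chr8:120152470-120173000, plus strand), measured 1046, 1150.2, 1494 and 2521 in Control and 10871, 4535, 7739 and 12772 in OGTi. It rose by 2.51 ± 0.26 (adjusted p = 0.000352), with no overlap.

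Ugdh converts UDP-glucose to UDP-glucuronate, which serves glucuronidation and the synthesis of hyaluronan and other glycosaminoglycans (chr5:65570551-65593805, minus strand). It measured 36579, 29854, 32230 and 31879 scaled counts in Control and 15439, 16826, 19766 and 16003 in OGTi. All 4 OGTi libraries lay below all 4 Control libraries, and the log2 fold change was -0.94 ± 0.18 (adjusted p = 0.00597). This was the opposite direction to the other called members. Ephx1, microsomal epoxide hydrolase, was not called (0.42 ± 0.20, adjusted p = 0.191), although OGTi exceeded Control in all 4 pairs.

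Measured in TPM, Hmox1 made up most of the difference in the summed level of the members. The 49 members together made up 1.28% to 1.54% of all TPM in Control libraries and 1.77% to 2.84% in OGTi libraries. Hmox1 alone went from 1656 ± 951 to 8181 ± 3656 TPM (SD, n = 4). Without it, the other 48 members summed to 12840 ± 1500 TPM in Control and 15470 ± 2249 TPM in OGTi. Those groups overlapped, although each pair was higher under OGTi. The 6 inducible enzymes other than Hmox1 summed to 1595 ± 35.2 against 2534 ± 171 TPM, without overlap.

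**Figure D3:**
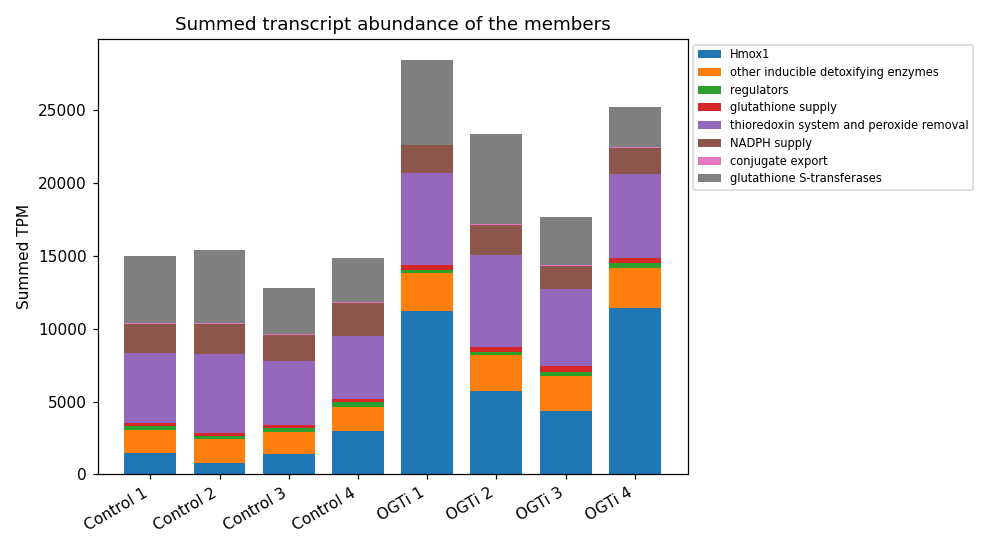
Summed TPM (y axis) of the members in each library, stacked by role, with Hmox1 drawn apart from the other inducible enzymes. Control libraries sum to between 12779 and 15407 TPM and OGTi libraries to between 17680 and 28439 TPM, and the Hmox1 segment differs most between the groups.

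Among the 7 members of the thioredoxin system and peroxide removal, 3 rose and none fell (42.9% called, against 18.4% of all genes). Prdx1, an abundant peroxiredoxin (chr4:116532123-116558398, plus strand), held 36886, 41902, 35089 and 38447 scaled counts in Control and 88620, 64923, 78454 and 88862 in OGTi. The groups did not overlap, and the change was 1.07 ± 0.18 (adjusted p = 0.00340). Like Prdx1, the other 2 genes called here rose in every pair, but their calls were lost in some analyses.

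Txn1, thioredoxin, which reduces protein disulfides (chr4:57934208-57956424, minus strand), measured 9849, 9602, 8694 and 10180 in Control and 22749, 12594, 12634 and 16406 in OGTi. Its change was 0.71 ± 0.20 (adjusted p = 0.0343). The Txn1 call was lost without replicate 1 (adjusted p = 0.0533), without replicate 3 (0.0956) and without replicate 4 (0.0879). On other scales the Txn1 call was lost too, with a log2 fold change of 0.51 with library totals alone (adjusted p = 0.0940), 0.38 on log2(TPM + 1) (0.0867) and 0.38 on log2(TPM + 0.1) (0.0841). Prdx6 encodes a peroxiredoxin that works with glutathione (chr1:161051417-161079098, minus strand). Its values were 21181, 19798, 12567 and 15142 in Control and 34521, 29461, 23701 and 21423 in OGTi, and its lowest OGTi library stood only just above its highest Control library. The change was 0.67 ± 0.18 (adjusted p = 0.0250), and the call was lost without replicate 2 (0.0554), 3 (0.143) or 4 (0.0531). Without the replicate block the adjusted p of Prdx6 was 0.0771. Its call was likewise lost with library totals alone (0.48, adjusted p = 0.0747) and on log2(TPM + 1) (0.35, 0.0964) and log2(TPM + 0.1) (0.35, 0.0991).

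Txnrd1, the cytosolic thioredoxin reductase and a textbook NRF2 target, was not called. Its libraries held 17619, 15388, 17549 and 20386 in Control and 16932, 19613, 31911 and 28696 in OGTi, and the groups overlapped through replicates 1 and 2. The change was 0.41 ± 0.20 (adjusted p = 0.187), and pair 1 moved by -0.06 on the log2 scale. Removing each library's trend on gene length brought Txnrd1 past the threshold (adjusted p = 0.0445). Gpx4, which reduces lipid hydroperoxides and guards against ferroptosis, measured 25392, 31725, 21970 and 18014 in Control and 40808, 30592, 20684 and 17819 in OGTi. The Gpx4 groups overlapped, 1 pair rose and 3 fell slightly, and the adjusted p was 0.703 (0.13 ± 0.20). In TPM, Gpx4 averaged 1833 in Control and 1644 in OGTi. Of its 50-base words 34.8% also occur in another annotated gene. Catalase (Cat) was also not called (0.44 ± 0.19, adjusted p = 0.136), although its groups did not overlap and DESeq2 called it (0.0465). Gpx2 was nearly absent, at 43 counts in all 8 libraries together.

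NADPH, the reductant for these systems, comes largely from the pentose phosphate pathway, and 1 of the 5 members that supply it was called (20%, near the 18.4% of all genes). G6pdx, glucose-6-phosphate dehydrogenase, the entry enzyme (chrX:73449857-73472819, minus strand), held 4236, 4491, 4256 and 5437 in Control and 8419, 7032, 6934 and 8378 in OGTi, without overlap. It rose by 0.74 ± 0.19 (adjusted p = 0.0213), a call lost without replicate 3 (0.0960) or replicate 4 (0.0503). The G6pdx call also depended on the scale, at 0.55 with library totals alone (adjusted p = 0.0683), 0.41 on log2(TPM + 1) (0.0558) and 0.41 on log2(TPM + 0.1) (0.0663). Pgd, the next dehydrogenase in the path, was not called (0.48 ± 0.18, adjusted p = 0.0896), but it was with DESeq2 (0.0222) and among genes with at least 10 counts in 4 libraries (0.0493). The estimates were near 0 for Taldo1 (0.10), Tkt (-0.03) and Me1 (-0.10), which are transaldolase, transketolase and cytosolic malic enzyme. Their signs differed among the alternative analyses. The exporters of glutathione conjugates, Abcc1 and Abcc4, were not called either (-0.26 and 0.02).

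The glutathione S-transferases, which couple glutathione to electrophiles, gave a count that depended on the test. With edgeR, 4 of the 21 genes rose (19.0%, against 8.13% of all genes tested) and none fell (against 10.2%). With DESeq2, 10 rose and none fell, against 13.8% of the 17253 genes with an adjusted p called higher. The other alternatives gave 2 to 7. The 2 came at an adjusted p of at most 0.01, where 3.76% of all genes were called higher. The 7 came with upper-quartile scaling (10.3% of all genes) and among genes with at least 10 counts in 4 libraries (11.7%). All 21 estimates were positive in scaled counts, with a median of 0.57, but 16 were positive with library totals alone and 15 on log2(TPM + 1). In the alpha class 3 of 4 genes rose (median 2.46), and in the mu class 1 of 7 (median 0.55).

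Gsta4, which conjugates lipid peroxidation aldehydes such as hydroxynonenal, was the most abundant alpha gene by TPM (chr9:78090056-78117763, plus strand). It went from 137, 240.1, 88.4 and 114 scaled counts in Control to 694, 686, 323 and 420.4 in OGTi. The groups did not overlap (1.90 ± 0.25, adjusted p = 0.000969). Gsta1 (chr9:78137927-78149966, plus strand) measured 64.2, 107, 38.7 and 25.1 in Control and 406, 489, 445 and 358 in OGTi, a change of 3.02 ± 0.33 (adjusted p = 0.000487). Of the 50-base words in annotated Gsta1 transcripts, 91.8% also occur in other genes, chiefly Gsta13, so its counts may include reads of that gene. Gsta2 (chr9:78238292-78263077, minus strand) was scarce, at 1.83, 9.67, 0 and 2.89 in Control and 46.1, 30.2, 32.0 and 19.5 in OGTi. Its change of 3.40 ± 0.83 (adjusted p = 0.0184) rested on 134 counts over all libraries, and the call was lost without replicate 1 (0.0906) or replicate 4 (0.0521). Over the alternative analyses the Gsta2 estimate ran from 1.15 to 4.33. Gsta2 shared 28.2% of its words with other genes, mostly Gsta1. Gsta3, the alpha gene on chromosome 1 rather than 9, was not called (0.99 ± 0.34, adjusted p = 0.0694), but it was with DESeq2 (0.0373) and with upper-quartile scaling (0.0445). Even after the rise, the alpha class summed to only 59.8 ± 16.8 TPM in OGTi, from 16.5 ± 8.50 TPM in Control (SD, n = 4).

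The mu class was the most abundant, at a sum of 2197 ± 894 TPM in Control and 2771 ± 1382 TPM in OGTi, and Gstm1 was its most abundant gene. Gstm1 (chr3:107919380-107925380, minus strand) held 42481, 44446, 15001 and 11953 scaled counts in Control replicates 1 to 4 and 84179, 66240, 25201 and 15756 in OGTi. Replicates 1 and 2 stood above replicates 3 and 4 in both groups, so that the Control libraries of the former exceeded the OGTi libraries of the latter and the groups overlapped. Within pairs Gstm1 rose in all 4, by 0.40 to 0.99 on the log2 scale, and the fit with the replicate block called it (0.68 ± 0.18, adjusted p = 0.0256). Without the block the adjusted p was 0.398. The call was also lost without replicate 2 (0.0554) or replicate 3 (0.109). With library totals alone Gstm1 was at 0.48 (adjusted p = 0.0755), on log2(TPM + 1) at 0.35 (0.0890) and on log2(TPM + 0.1) at 0.35 (0.0829), and it was not called on any of these scales. Gstm1 made up 18.8% to 43.1% of the summed TPM of all 21 genes in Control and 22.5% to 46.9% in OGTi libraries. Gstm2, Gstm3, Gstm4, Gstm5, Gstm6 and Gstm7 were not called by edgeR, with log2 fold changes of 0.30 to 0.67. DESeq2 called Gstm2 (0.0180) and Gstm4 (0.0195), which also passed among genes with at least 10 counts in 4 libraries (0.0413 and 0.0499), and Gstm2 passed with upper-quartile scaling (0.0449). All 7 mu genes lie together on chromosome 3.

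The remaining classes held no gene called by edgeR, whereas DESeq2 called Gsto1 (adjusted p = 0.0359), Gstt1 (0.0196) and Gstt2 (0.0364). Gstt1 was also called with upper-quartile scaling (0.0465) and among genes with at least 10 counts in 4 libraries (0.0493). Gstp1, the main pi-class enzyme, measured 8400.2, 9340, 8193 and 10886 in Control and 14044, 10503, 7344 and 8386 in OGTi, with overlapping groups and 2 pairs in each direction (0.09 ± 0.22, adjusted p = 0.825). In TPM, Gstp1 averaged 877 in Control and 759 in OGTi. Gstp1 and Gstp2 share 31.0% and 52.5% of their words with other genes, mostly each other, so the split of reads between them is uncertain. Gsto1, the main omega gene, was at 13439, 15067, 7613 and 8653 in Control and 21033, 16287, 12946 and 12914 in OGTi (0.53 ± 0.19, adjusted p = 0.0845). Its groups overlapped, although each pair was higher under OGTi. Gstt1, the most abundant theta gene by TPM, stood at 389, 400.1, 444 and 594 in Control and 818, 524, 744 and 776 in OGTi (0.65 ± 0.23, adjusted p = 0.0784). Gstk1, a mitochondrial and peroxisomal enzyme, was at 1321, 1593, 1296 and 1101 in Control and 1619, 1534, 1456 and 1087 in OGTi (0.10 ± 0.20, adjusted p = 0.796). Gstt1 and Gstk1 also overlapped between the groups, and in TPM Gstk1 averaged 92.6 in Control and 79.5 in OGTi. Gstp2, Gstt3, Gstt4 and Gsto2 were called by neither tool, nor was Gstp3, for which DESeq2 gave no adjusted p. Gstp3 held 10 counts over the 8 libraries, Gstt4 held 29 and Gstm3 held 49, and the size of change that could be called at such counts was not tested.

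**Figure D4:**
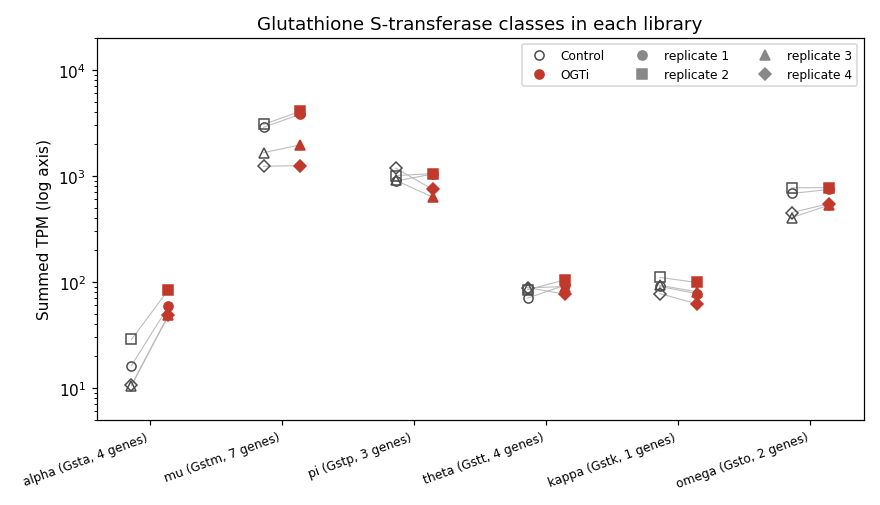
Summed TPM (y axis, log scale) of each glutathione S-transferase class in every Control (open) and OGTi (filled) library, with lines joining the pairs. The alpha class is higher in all OGTi libraries (48.1 to 84.0 TPM) than in all Control libraries (10.4 to 28.6 TPM), and the mu class separates replicates 1 and 2 from 3 and 4 in both groups.

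Other genes of the pathway were counted from a list of 87, of which 85 were tested (not Ces1d and Mgst2). Of these, 20 rose and 6 fell, 30.6% of those tested against 18.4% of all genes, with a median log2 fold change of 0.30. The number called was 12 without replicate 3 and 16 without replicate 4. Calls named below held in all 15 alternatives unless stated, apart from the stricter threshold of 0.01.

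In the list of genes that control NRF2, 5 of 13 rose and 1 fell (46.2% called, against 18.4% of all genes). Sqstm1, the autophagy receptor p62 that sequesters KEAP1, rose most (1.48 ± 0.21, adjusted p = 0.00155). The small MAF partners also rose, Maff by 1.15 ± 0.32, Mafk by 0.90 ± 0.25 and Mafg by 0.85 ± 0.20 (adjusted p = 0.0332, 0.0314 and 0.0164), as did Bach1, the repressor that competes for the same elements (1.12 ± 0.29, 0.0240). Dpp9, a peptidase, fell (-0.97 ± 0.24, 0.0184). Of these 6 calls only that of Sqstm1 held in all 4 leave-outs. The others were each lost without replicate 3 (adjusted p of 0.0515 to 0.153). Without replicate 4 the calls of Bach1, Maff and Mafk were lost (0.0994 to 0.129), without replicate 2 those of Mafg, Maff, Mafk and Dpp9 (0.0611 to 0.0841), and without replicate 1 that of Bach1 (0.0723). Mafk was also lost without the replicate block (0.0594). With library totals alone the calls of Mafg (0.0564), Mafk (0.0621) and Maff (0.0593) were lost, and that of Maff also with the length trend removed (0.0638). On log2(TPM + 1) those of Bach1 (0.104), Mafg (0.0820), Mafk (0.193) and Maff (0.137) were lost, as they were on log2(TPM + 0.1).

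Among other NRF2 target genes, 8 of 21 tested rose and 1 fell (42.9% called, against 18.4% of all genes). Ftl1, the ferritin light chain, rose by 1.87 ± 0.18 (adjusted p = 0.000301). Its level went from 27650 ± 9809 to 78580 ± 17300 TPM (SD, n = 4), more than the 49 members summed. Pir (1.17 ± 0.24, 0.00779), Cbr3, a carbonyl reductase (1.12 ± 0.24, 0.00969), and Mocos, the molybdenum cofactor sulfurase (1.12 ± 0.21, 0.00559), rose as well; pirin (Pir) is an iron-binding nuclear protein. Gla, a lysosomal galactosidase (0.94 ± 0.20, 0.00998), and Trim16, a ubiquitin ligase (0.90 ± 0.19, 0.0101), also rose, but both calls were lost without replicate 3 (0.0690 and 0.0744). Trim16 was also lost on log2(TPM + 1) (0.0510) and log2(TPM + 0.1) (0.0559).

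Of 30 other glutathione enzymes tested, 5 rose and 2 fell, a share (23.3%) near the 18.4% of all genes. Cth, which makes cysteine from cystathionine, rose by 2.80 ± 0.54 (adjusted p = 0.00597), Chac1, which degrades glutathione, by 2.49 ± 0.33 (0.00103), and Slc3a2, the heavy chain that partners Slc7a11, by 2.16 ± 0.21 (0.000294). Cth, Chac1 and Slc3a2 are known targets of the amino acid stress factor ATF4. The part of ATF4 in these rises, and in those of the members, was not tested. Ggt1, which breaks down extracellular glutathione, rose by 0.82 ± 0.22 (0.0265). Gstz1, an enzyme of tyrosine breakdown, fell (-1.03 ± 0.23, 0.0116), as did the secreted peroxidase Gpx3 (-0.93 ± 0.23, 0.0198). The calls of Ggt1, Gstz1 and Gpx3 were lost without replicate 3 (0.0508 to 0.165) and without replicate 4 (0.0619 to 0.0699). Without the replicate block those of Gpx3 (0.568) and Ggt1 (0.350) were lost. Ggt1 was further lost with library totals alone (0.0735), on log2(TPM + 1) (0.101) and on log2(TPM + 0.1) (0.108).

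Of 21 further redoxin and radical-scavenging genes, 2 rose and 2 fell, a share (19.0%) close to that of all genes. Txnip, which binds and inhibits thioredoxin, fell (-1.78 ± 0.26, adjusted p = 0.00182). Msrb2, a mitochondrial methionine sulfoxide reductase, fell too (-1.28 ± 0.23, 0.00424). The superoxide dismutases Sod3 (0.86 ± 0.23, 0.0287) and Sod1 (0.66 ± 0.18, 0.0267) rose. Both calls were lost without replicate 3 (0.0553 and 0.0704) and without replicate 4 (0.105 and 0.0840), that of Sod3 also without replicate 1 (0.0663) and that of Sod1 without replicate 2 (0.0682). Without the replicate block the adjusted p of Sod3 was 0.184. Both were also lost with library totals alone (0.0560 for Sod3 and 0.0904 for Sod1), on log2(TPM + 1) (0.123 and 0.118) and on log2(TPM + 0.1) (0.109 and 0.104), and Sod1 with the length trend removed (0.114).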

How the data were processed

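RNA was sequenced from 4 Control and 4 OGTi cultures, grouped and numbered by the sample titles. Per the submitters' processing notes and the methods, the authors aligned stranded paired-end reads with Bowtie2 2.3.5.1 to mm39 and counted them with RSEM 1.3.1. The deposited tables, 1 per library, give expected counts, TPM (abundance scaled by length and depth) and effective gene length. Their transcript identifiers are RefSeq ones, whereas the methods name GENCODE. A comparison table with the authors' DESeq2 1.36.0 output (counts, normalized counts, fold changes and p-values) was not used.

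Expected counts were rounded and tested with edgeR 4.0.16 in R 4.3.3 (TMM scaling, glmQLFit and glmQLFTest, replicate number as a block, genes with a total of at least 10 counts). SE was obtained as the size of the log2 fold change over the square root of F. The script was tested on simulated data. The study's methods pair the 2 libraries of a replicate, and deviations from group means correlated at 0.16, 0.224, 0.105 and 0.318 for same-numbered libraries, against -0.312 to 0.208 for others. RSEM can divide reads among near-identical genes, which affects the glutathione S-transferases. Shared words were counted on GENCODE vM39 transcripts, the source of the GRCm39 gene coordinates.

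Members and lists were chosen with earlier results of these data known. All called members are described, with Nfe2l2, Keap1, Nqo1, Hmox1, Gclc, Gclm, Slc7a11, Srxn1, Txnrd1, Gpx4 and the most abundant gene of each transferase class, and at most 6 called genes per other list, those of largest change. Alternatives were scaling, filter, DESeq2 1.42.0, limma 3.58.1 on log2 TPM, no block, removal of a length trend, leaving out each pair and an adjusted p of at most 0.01.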

Additional observations from a re-analysis of the deposited data

Results flagged for a closer look

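In 98 groups of 4 libraries (49 members in Control and in OGTi), the highest or lowest library was compared with the others by Dixon's ratio, which flags about 1 in 20 groups by chance, here 4.9. It singled out 4, all in genes that were not called changed. Taldo1, transaldolase, was at 27313 scaled counts in Control replicate 3, against 32373 to 33077 in the other Control libraries. Tkt, transketolase, was lowest in OGTi replicate 3, at 5498, while the remaining OGTi libraries held 6724 to 6914. Gstm2 was at 7851 in Control replicate 4, against 10712 to 11268 in the others. Gsto2 was at 80.0 in Control replicate 2, against 28.9 to 33.1 in the others.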

How the results depend on the processing

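Over the 15 alternatives, 13 (adjusted p of at most 0.01) to 26 (DESeq2) members were called changed, against 18. DESeq2 also called more genes in all, 4859 of the 17253 with an adjusted p, against 3666 of 19963. Leaving out a pair gave 14 to 16 members, and 1905 to 3124 genes in all. No called member changed sign, and Ugdh was the 1 called lower in each. Without the replicate block, 16 members were called (15 higher and 1 lower) and 2991 genes in all, against 3666. Of the 31 uncalled members, 9 were called in some alternative, and 14 had an estimate of the other sign in some. The other pathway genes called numbered 13 at an adjusted p of at most 0.01 and 12 to 26 with a pair left out, against 26. Over all genes, 1905 and 1956 were called without replicates 3 and 4 (1668 under the 0.01 threshold), and limma called 3456 and 3473 lower on log2(TPM + 1) and log2(TPM + 0.1), against 2043. The causes were not tested. Upper-quartile scaling moved the median of all genes from 0.005 to 0.13 and library totals alone to -0.19 (log2), and the members' median from 0.57 to 0.69 and 0.37. On log2(TPM + 1) and log2(TPM + 0.1) the members' median was 0.20 and 0.23 and that of all genes -0.10 and -0.23. Counts were lowest for Gpx2, Gsta2, Gstm3, Gstp3 and Gstt4.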
